A study of Mus musculus with 3 samples.

Results

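Type I interferon-stimulated genes were followed through 3 droplet libraries of mouse liver cells. The list held 37 genes, taken by symbol: 36 of them had a row among the 31053 genes of the deposited matrices, and Mx2 had none and was not analysed here. Each gene was read as raw UMI counts (unique molecular identifiers, which count captured RNA molecules) in every library and in each class of cells. The study placed 4T1 cells, a mouse breast cancer line, or PBS in female BALB/c mice by orthotopic injection and then took the non-parenchymal cells of the perfused liver. The control group received PBS and was 8 weeks old, the day 4 group received 4T1 cells and was also labelled as 8 weeks old, and the day 21 group received 4T1 cells and was 11 weeks old. There was 1 library per group, made with the 10x Genomics 3′ chemistry. The labels give neither the number of mice behind a library nor the day on which control livers were taken, and age, day and library cannot be told apart.

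Type I interferons are secreted cytokines that bind the receptor made of Ifnar1 and Ifnar2. The receptor activates the kinases Jak1 and Tyk2, which phosphorylate Stat2, and Stat2 joins Irf9 in a complex that binds interferon-stimulated response elements in promoters. The genes switched on in this way encode antiviral enzymes, nucleic acid sensors, membrane proteins that block viral entry or release, and regulators that amplify or shut off the signal. Many of them are also induced by interferon gamma or interferon lambda, so their level does not name the ligand. In the liver, Kupffer cells (the resident macrophages), sinusoidal endothelial cells and stellate cells (the pericytes that store vitamin A) all respond to these cytokines.

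Promoter sequence is shown for 5 members that stand for the different courses described below. RefSeq promoters of the GRCm38.p6 build, 250 bases before to 50 after each start site, matched 27 of the 37 members through 30 entries. The core of the response element, written here as GAAA, any 2 bases and GAAA and searched on both strands, occurred in 16 of the 30 entries, from 15 members, and in 3.44% of all 32851 promoters of the same length. A second element, TTCNNNGAA, occurred in 6 of the 30 entries and in 8.3% of all promoters. A match is a description of the letters in this window and not a tested site. The lines below give the 200 bases before the start site on the strand of the gene, with matches to that core or its reverse complement in capitals.
Isg15 promoter, chr4:156200819-156201018, minus strand: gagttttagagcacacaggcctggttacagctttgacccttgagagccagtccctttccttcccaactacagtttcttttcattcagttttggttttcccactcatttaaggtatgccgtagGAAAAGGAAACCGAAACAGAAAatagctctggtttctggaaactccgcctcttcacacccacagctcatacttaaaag
Ifit1 promoter, chr19:34640689-34640888, plus strand: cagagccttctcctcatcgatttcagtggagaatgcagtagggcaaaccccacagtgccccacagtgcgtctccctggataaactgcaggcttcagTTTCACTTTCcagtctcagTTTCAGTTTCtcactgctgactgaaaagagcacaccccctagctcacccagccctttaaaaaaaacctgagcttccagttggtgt
Ifit3 promoter, chr19:34583329-34583528, plus strand: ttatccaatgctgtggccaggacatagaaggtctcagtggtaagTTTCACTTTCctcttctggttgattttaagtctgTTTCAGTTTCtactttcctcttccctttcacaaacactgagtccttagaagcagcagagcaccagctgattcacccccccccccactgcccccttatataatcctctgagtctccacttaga
Rsad2 promoter, chr12:26456453-26456652, minus strand: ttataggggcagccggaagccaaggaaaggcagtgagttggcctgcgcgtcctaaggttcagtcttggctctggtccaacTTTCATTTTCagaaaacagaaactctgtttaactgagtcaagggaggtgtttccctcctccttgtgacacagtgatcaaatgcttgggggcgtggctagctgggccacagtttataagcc
Trim30a promoter, chr7:104465194-104465393, minus strand: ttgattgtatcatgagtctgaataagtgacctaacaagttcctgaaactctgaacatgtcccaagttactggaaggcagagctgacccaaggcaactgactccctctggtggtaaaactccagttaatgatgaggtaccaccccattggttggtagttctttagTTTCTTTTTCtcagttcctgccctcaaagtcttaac
Isg15 had 3 matches that overlap each other, starting 78, 72 and 66 bases before the start site. Ifit1 and Ifit3 had 2 matches each, Rsad2 had 1, and Trim30a had 1 that began 36 bases before the start site shown, which is 1 of 2 listed for that gene. No match to the core was found in the windows of Irf7, Oasl1, Oasl2, Irf9, Ifi47, Ifit2, Xaf1, Lgals3bp, Herc6, Ifi35, Ifi44 or Cmpk2. Of these genes, Ifit2 and Ifi35 had a match to the second element.

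The control, day 4 and day 21 libraries held 6489, 9175 and 12338 barcodes, with 27191082, 34833820 and 51913215 UMIs. Of these, 4694, 5266 and 9938 cells passed the filters. Few barcodes were shared between libraries: 13 between day 4 and control, 32 between day 21 and day 4, and 22 between day 21 and control. Classes were named from clusters by lists of marker genes, and 8 classes had at least 50 cells in each library: Kupffer-like (471, 900 and 668 cells in the control, day 4 and day 21 libraries), endothelial-like (1368, 1480 and 1073), stellate-like (397, 435 and 226), conventional dendritic-like (71, 112 and 133), neutrophil-like (54, 187 and 2404), T-like (372, 264 and 317), B-like (327, 213 and 724) and NK/ILC1-like (85, 54 and 65). Another 1435, 1511 and 2433 cells stayed unnamed.

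The day 21 library stood apart from the control and day 4 libraries. Of the endothelial-like cells, cluster 2 held 13, 16 and 964 in the control, day 4 and day 21 libraries, and cluster 4 held 977, 1144 and 37. Of the Kupffer-like cells, cluster 6 held 303, 591 and 36 and cluster 7 held 168, 309 and 632, with median depths of 10016 and 1871 UMIs. Stellate-like cluster 12 held 21, 8 and 225 cells and cluster 13 held 376, 427 and 1. Neutrophil marker genes (10 listed) summed to 55.2, 60.9 and 6252 CPM (UMIs of a gene scaled to the same total for every class and library) in the Kupffer-like class and to 52.4, 67.8 and 2680 CPM in the endothelial-like class in the control, day 4 and day 21 libraries, against 402311 CPM in the day 21 neutrophil-like cells themselves. In stellate-like cells the same markers summed to 17.6, 23.7 and 4745 CPM. Hepatocyte marker genes (12 listed) moved the other way, with 1933, 1436 and 500.4 CPM in Kupffer-like cells and 981, 815 and 323 CPM in endothelial-like cells. The median depth of a Kupffer-like cell was 7839, 7551 and 2027 UMIs in the same order. The part of these differences in the results below was not tested beyond the values given, and with 1 library per group no p-value was possible: intervals are exact 95% intervals that cover counting error only.

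The median member was higher at day 4 than in the control in each class compared other than NK/ILC1-like cells, and lower at day 21 than at day 4 in each, although in conventional dendritic-like and B-like cells this second median was above 0 under some settings. A day 4 peak was counted where the CPM of a gene was at least 25% higher at day 4 than in the control and at least 20% lower at day 21 than at day 4, which is the same fold up and down. Genes with 20 or more UMIs over the 3 libraries of a class were counted as measured. Both ratios share the day 4 library, and the list was put together with this course of the data known, so its direction is not independent evidence.

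The day 4 peak was met by 11 of 36 measured members in Kupffer-like cells (4.5% of all measured genes), by 18 of 35 in endothelial-like cells (4.72%) and by 9 of 35 in stellate-like cells (5.9%). The counts were 9 of 31 in conventional dendritic-like cells (6.75%), 9 of 26 in T-like cells (7.29%) and 11 of 24 in B-like cells (8.64%). In NK/ILC1-like cells 2 of 10 measured members met it, against 10.3% of all measured genes, which is too few members to describe a course. In neutrophil-like cells 24 of 32 did (19.5%), and that class is treated separately because its control library held only 75523 UMIs.

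**Figure D1:**
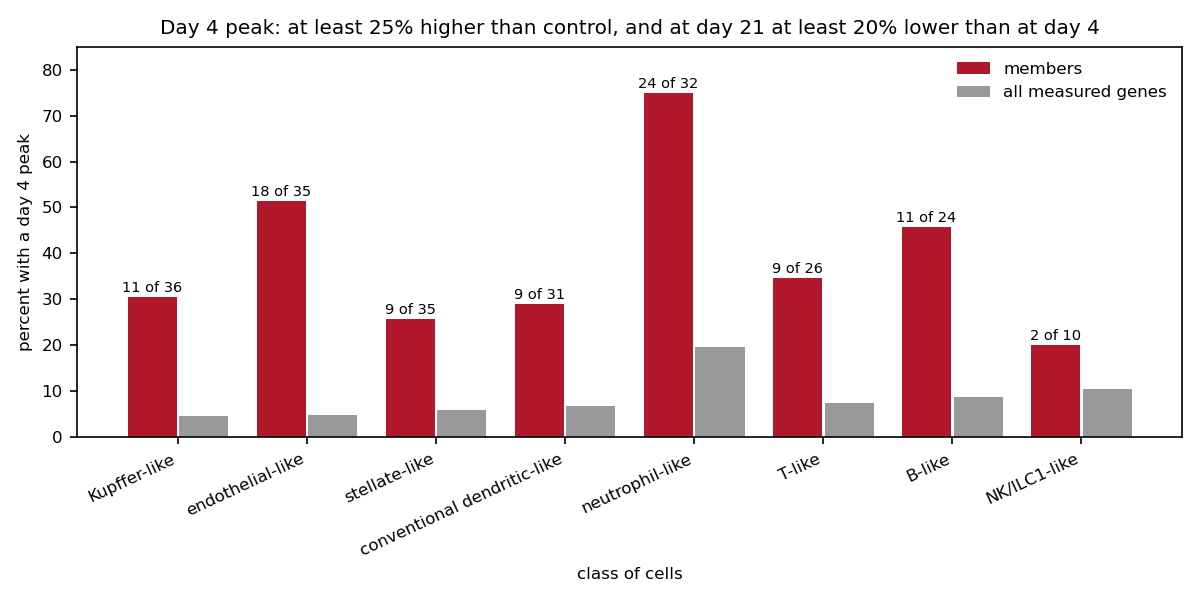
Percent of measured members (red) and of all measured genes (grey) with a day 4 peak, for each class of cells on the x axis; the numbers above the red bars are members with the peak of members measured. The red bar is above the grey bar in every class, with 18 of 35 members in endothelial-like cells and 2 of 10 in NK/ILC1-like cells.

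The size of the day 4 difference was small in the 3 resident classes. The median log2 ratio of day 4 over control was 0.34 for members and 0.00 for all measured genes in Kupffer-like cells, 0.45 and 0.03 in endothelial-like cells, and 0.31 and 0.00 in stellate-like cells. The median log2 ratio of day 21 over day 4 was −0.57 for members and 0.09 for all genes in Kupffer-like cells, −0.94 and 0.05 in endothelial-like cells, and −0.58 and 0.08 in stellate-like cells. With a fold of 1.5 in place of this one, 1 member in Kupffer-like cells (Isg15), 5 in endothelial-like cells (Isg15, Ifit1, Oasl2, Oas2 and Cmpk2) and 1 in stellate-like cells (Ifit1) kept the peak, against 1.43%, 1.15% and 1.7% of all measured genes. With a fold of 2, 0 members did so in any of these 3 classes (0.294%, 0.189% and 0.324% of all genes).

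**Figure D2:**
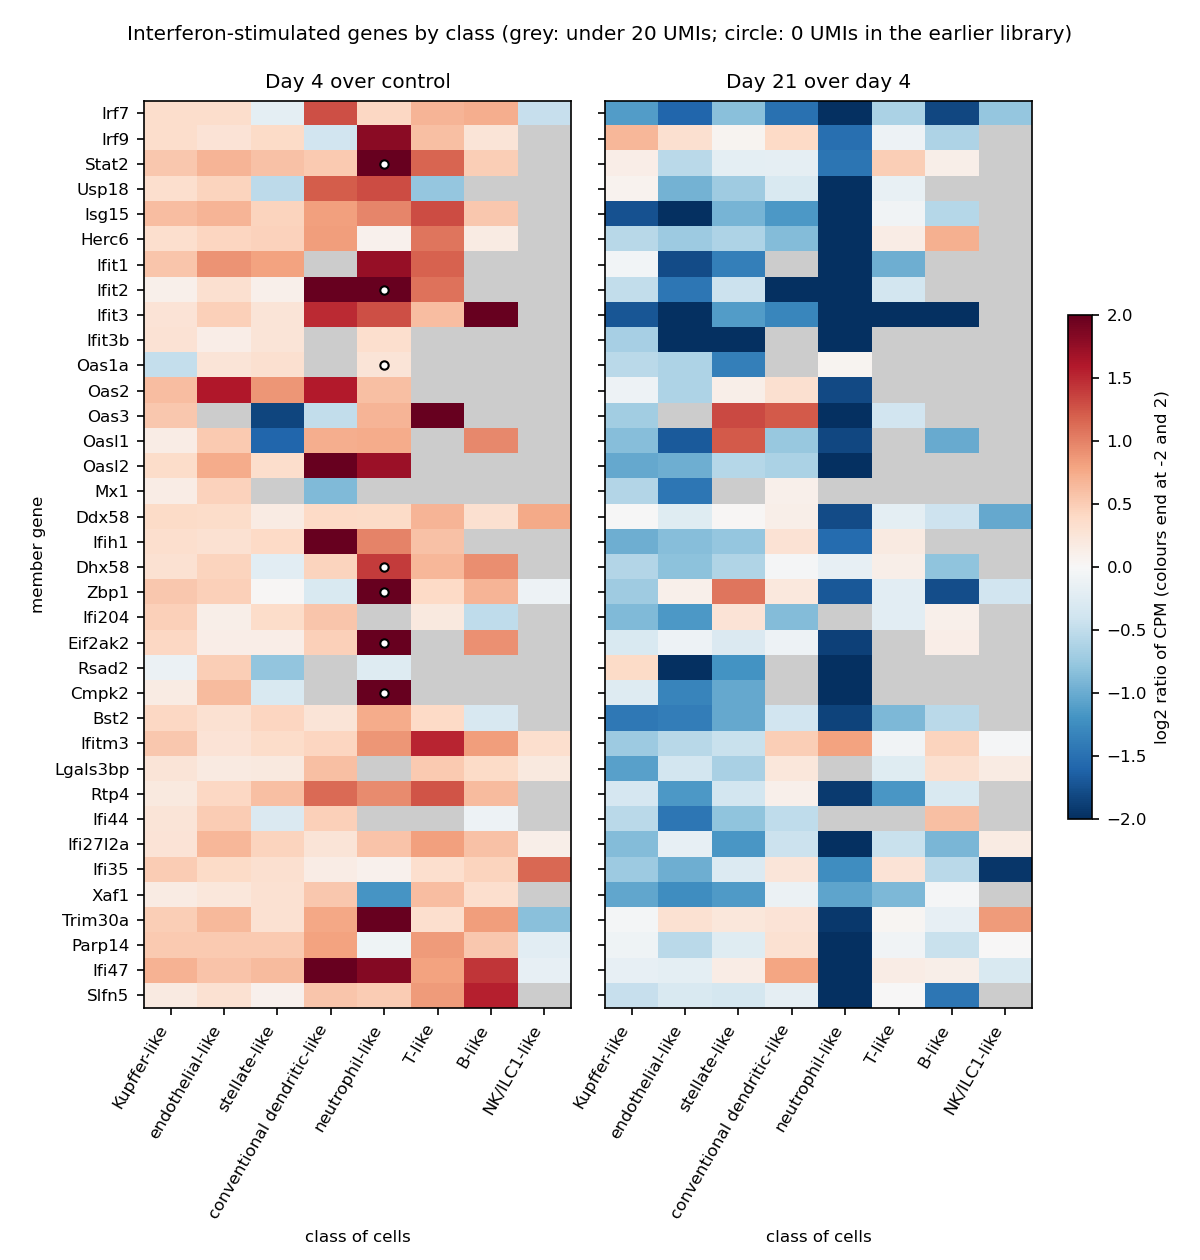
Log2 ratio of CPM for each member (rows, ordered by role) in each class (columns), for day 4 over control on the left and day 21 over day 4 on the right; red is higher and blue lower in the later library, grey marks fewer than 20 UMIs, and circles mark 0 UMIs in the earlier library. Endothelial-like cells have 23 of 35 members at least 25% higher at day 4 and 27 of 35 at least 20% lower at day 21 than at day 4.

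Taken one step at a time, 21 of 36 members were at least 25% higher at day 4 than in the control in Kupffer-like cells (16.7% of all measured genes), 23 of 35 in endothelial-like cells (16.3%) and 16 of 35 in stellate-like cells (17.2%). The opposite, at least 20% lower at day 4, was seen for 1, 0 and 4 members in these classes (17.7%, 13% and 18.9% of all genes). At day 21, 24 of 36, 27 of 35 and 22 of 35 members were at least 20% lower than at day 4 (22.2%, 21.4% and 21% of all genes), and 2, 1 and 3 were at least 25% higher (32.4%, 27.8% and 32.1%).

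The ISG15 system had a day 4 peak in most of its values. Isg15 encodes a ubiquitin-like protein that is attached to other proteins, Herc6 is the main ligase for it in mice, and Usp18 removes it and also blocks the interferon receptor. Isg15 had 73.6, 113 and 33.4 CPM in Kupffer-like cells in the control, day 4 and day 21 libraries. In endothelial-like cells Isg15 had 63.7, 102 and 24.3 CPM, and in stellate-like cells 195, 267 and 139.7 CPM. Day 4 was the highest of the 3 libraries in each of these classes and day 21 the lowest. The log2 ratios of Isg15 at day 21 over day 4 were −1.74 (interval −2.19 to −1.35), −2.06 (−2.45 to −1.70) and −0.93 (−1.16 to −0.72) in Kupffer-like, endothelial-like and stellate-like cells. Herc6 met the day 4 peak in the same 3 classes with smaller differences, such as 35.6, 48.1 and 29.04 CPM in endothelial-like cells. Usp18 met it in endothelial-like cells, with 16.3, 22.2 and 11.4 CPM. In stellate-like cells Usp18 was lower at day 4 than in the control (47.1, 32.7 and 19.8 CPM), and in Kupffer-like cells it was about level between day 21 and day 4 (19.99, 25.4 and 26.3 CPM).

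The transcription factors split. Irf7, which amplifies the response, had a day 4 peak in Kupffer-like cells with 913, 1168 and 536 CPM and in endothelial-like cells with 60.6, 77.4 and 25.7 CPM. In stellate-like cells Irf7 was 125, 109.9 and 61.3 CPM, with no higher level at day 4. Irf9, the DNA-binding subunit of the activated complex, was instead highest at day 21: it had 45.0, 57.3 and 90.6 CPM in Kupffer-like cells and 48.5, 58.8 and 73.5 CPM in endothelial-like cells. Its log2 ratio of day 21 over day 4 was 0.66 in Kupffer-like cells (interval 0.37 to 0.94) and 0.33 in endothelial-like cells (0.08 to 0.57), where Irf7 had −1.12 and −1.58. Stat2, the partner of Irf9, had 77.7, 113 and 123 CPM in Kupffer-like cells and 47.2, 75.7 and 51.8 CPM in endothelial-like cells. In Kupffer-like cells neither of these subunits was lower at day 21 than at day 4, while Isg15 was. With at most 10% mitochondrial UMIs, the log2 ratio of Stat2 for day 21 over day 4 there was −0.13.

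Members of the IFIT family, which bind foreign RNA and block its translation, lie next to each other on chromosome 19 and differed by class. Ifit1 had a day 4 peak in endothelial-like cells (28.2, 52.6 and 15.1 CPM) and in stellate-like cells (55.2, 96.0 and 36.8 CPM). In Kupffer-like cells Ifit1 had 19.4, 28.8 and 27.6 CPM, higher at day 4 and not lower by the fold at day 21. Ifit3 was low at day 21 in all 3 classes: 68.6, 82.7 and 25.1 CPM in Kupffer-like cells, 45.1, 62.6 and 7.35 CPM in endothelial-like cells and 119.9, 143 and 65.4 CPM in stellate-like cells. Its log2 ratio of −3.05 at day 21 over day 4 in endothelial-like cells (interval −3.81 to −2.45) was the most negative of the 35 measured members there. Ifit2 was less than 25% higher at day 4 than in the control, with log2 ratios of 0.10, 0.31 and 0.10 in the 3 classes. The endothelial-like value (74.0 and 92.1 CPM) lay just under that fold. Ifit2 was lower at day 21 than at day 4 in each class. Ifit3b is nearly identical to Ifit3, so reads of one may be counted for the other, and its values (11.1, 13.7 and 8.35 CPM in Kupffer-like cells) are uncertain for that reason.

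The OAS proteins make a second messenger that activates RNase L, and the OAS-like proteins belong to the same family. Oasl2 met the day 4 peak in 5 of the 5 classes where it was measured, with 73.6, 95.4 and 46.9 CPM in Kupffer-like cells, 58.5, 98.2 and 49.998 CPM in endothelial-like cells and 80.5, 103 and 68.8 CPM in stellate-like cells. Oas3 had a day 4 peak in Kupffer-like cells (98.8, 144 and 88.6 CPM) and was under 20 UMIs in endothelial-like cells. Oas2 was higher at day 4 and not lower by the fold at day 21 in Kupffer-like cells, with 56.6, 86.9 and 80.9 CPM. In endothelial-like cells Oas2 rested on 6, 19 and 4 UMIs. Oasl1 was lower at day 21 than at day 4 in Kupffer-like cells (96.6, 107 and 59.1 CPM). In stellate-like cells it was lower at day 4 than in the control, with 13.5, 4.36 and 10.2 CPM. Oas1a, whose close copies share sequence with it, was lower at day 4 than in the control in Kupffer-like cells (17.5, 12.5 and 8.35 CPM), though the interval of that log2 ratio of −0.48 ran from −0.97 to 0.02. Mx1, a GTPase that traps viral nucleocapsids, was sparse, with 61, 126 and 19 UMIs in Kupffer-like cells and 8, 11 and 1 in endothelial-like cells.

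Of the nucleic acid sensors, 3 of 6 had a day 4 peak in Kupffer-like cells (4.5% of all measured genes) and 1 of 6 in endothelial-like cells (4.72%). Zbp1, which binds nucleic acid in the Z form, had 67.2, 97.7 and 59.1 CPM in Kupffer-like cells. Ifih1 (MDA5, a sensor of long double-stranded RNA) had 64.7, 81.8 and 41.1 CPM there. Ifi204, one of a family of near-identical genes, had 149, 208 and 112 CPM. Ddx58 (RIG-I, a sensor of RNA ends) was higher at day 4 and not lower by the fold at day 21: 66.9, 87.7 and 86.7 CPM in Kupffer-like cells and 52.5, 68.0 and 57.4 CPM in endothelial-like cells. Eif2ak2 (PKR, a kinase that halts translation) had 66.6, 88.9 and 71.3 CPM in Kupffer-like cells and met neither fold in endothelial-like cells (42.4, 46.4 and 43.0 CPM). Dhx58 (LGP2, a regulator of both RNA helicases) had the peak in endothelial-like cells, with 10.6, 14.5 and 8.09 CPM.

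Rsad2, which encodes the antiviral enzyme viperin, and its chromosome 12 neighbour Cmpk2, a mitochondrial nucleotide kinase, differed between classes. In endothelial-like cells Rsad2 had 72.6, 102 and 21.7 CPM and Cmpk2 21.5, 33.6 and 13.2 CPM. In Kupffer-like cells Rsad2 had 99.9, 91.8 and 119 CPM and Cmpk2 26.1, 29.4 and 24.4 CPM. The log2 ratio of Rsad2 at day 21 over day 4 was 0.38 in Kupffer-like cells (interval 0.14 to 0.62) and −2.22 in endothelial-like cells (−2.64 to −1.85). The difference between the classes was not tested, and both values moved within single clusters. In endothelial-like cluster 3 alone Rsad2 had 42, 16 and 9 UMIs and a ratio of −0.20. In Kupffer-like cluster 7 alone it had 37.8, 67.7 and 125 CPM, higher in each later library, and a ratio of 0.87. In stellate-like cells Rsad2 was lower in each later library, with 52.2, 30.3 and 12.9 CPM.

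Members that act at membranes or are secreted were all lower at day 21 than at day 4 in the 3 resident classes. Bst2 (tetherin, which holds virions on the cell surface) had 286, 382 and 142 CPM in Kupffer-like cells, 468, 576 and 221 CPM in endothelial-like cells and 319.98, 431 and 211 CPM in stellate-like cells. Ifitm3, which blocks fusion of viruses in endosomes, had 1730.2, 2523 and 1529 CPM in Kupffer-like cells and 3038, 3910.2 and 2868 CPM in stellate-like cells. Lgals3bp, a secreted glycoprotein, was close to the control at day 4 and low at day 21 in Kupffer-like cells (405, 487 and 228 CPM). It met the day 4 peak in 0 of the 7 classes where it was measured. Rtp4, a chaperone of membrane receptors with antiviral activity, had the peak in endothelial-like cells with 111, 147 and 66.5 CPM.

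The remaining induced genes included several that did not have the day 4 peak in the resident classes. Trim30a, which restrains Toll-like receptor signalling in mice, had 183, 258 and 249.9 CPM in Kupffer-like cells and 67.2, 105 and 129.8 CPM in endothelial-like cells. Ifi47, an immunity-related GTPase that also responds to interferon gamma, had 49.4, 79.9 and 71.3 CPM in Kupffer-like cells and 28.8, 42.8 and 37.1 CPM in endothelial-like cells. Both were at least 25% higher at day 4 and neither was 20% lower at day 21 in these classes. Parp14, an ADP-ribosyltransferase, behaved in that way in Kupffer-like cells (80.8, 116 and 109 CPM) and had the peak in endothelial-like cells (106, 153 and 105 CPM). Ifi27l2a was the member with the most UMIs in Kupffer-like cells (2275, 2754 and 1516 CPM) and was sparse in endothelial-like cells (20.4, 32.4 and 28.7 CPM). Ifi44 had 104, 148 and 54.0 CPM in endothelial-like cells, and Ifi35 had 69.4, 90.9 and 46.0 CPM. Xaf1, which antagonises an inhibitor of apoptosis, and Slfn5 were less than 25% higher than the control at day 4 in both classes, with Xaf1 low at day 21 (68.9, 77.2 and 37.3 CPM in Kupffer-like cells).

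**Figure D3:**
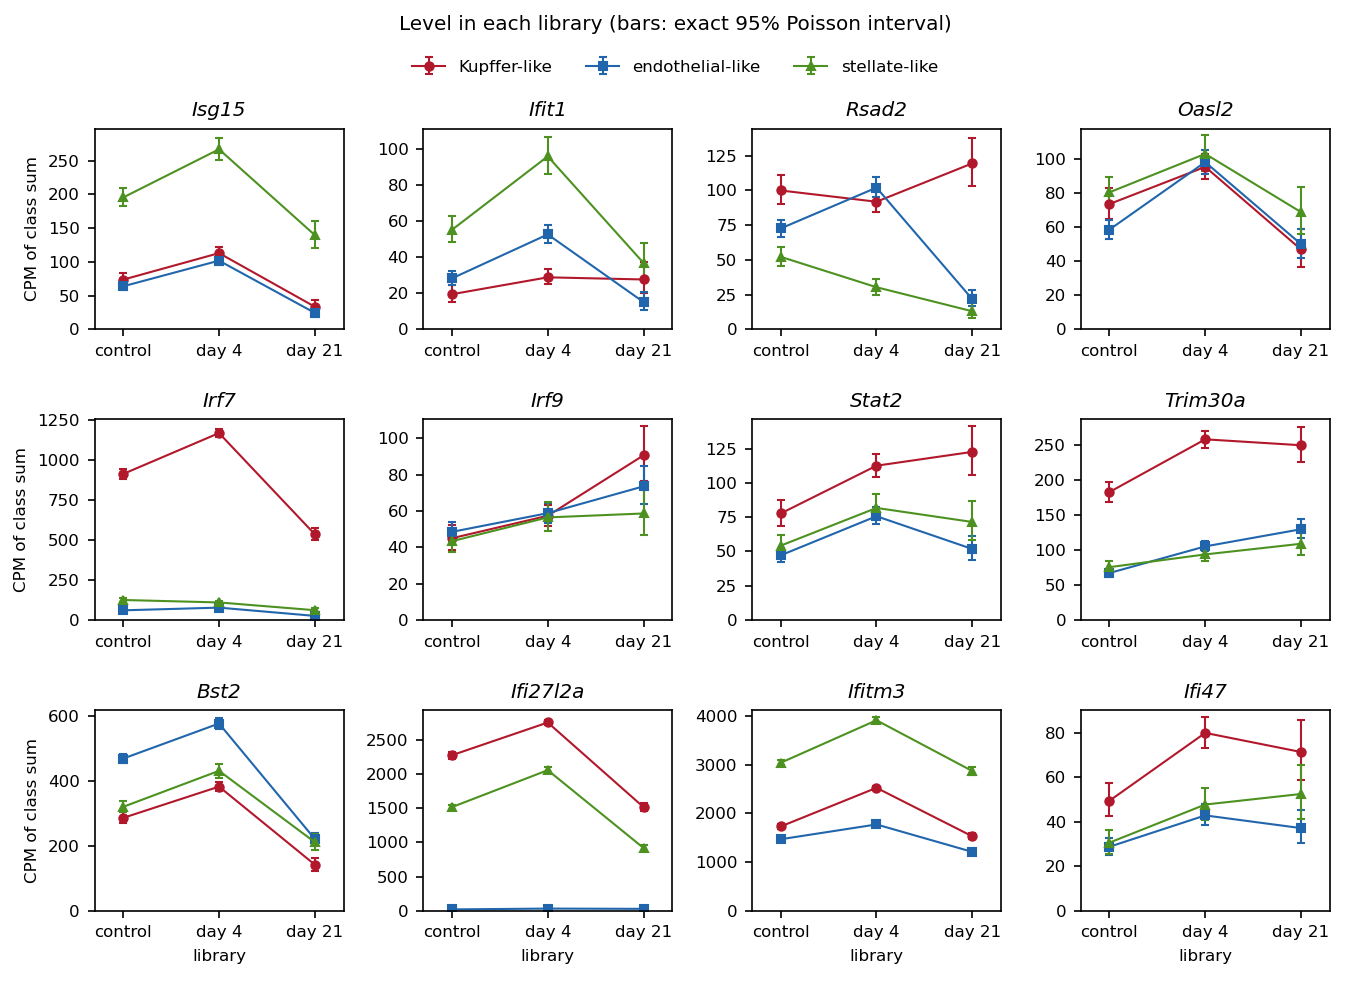
CPM of the class sum (y axis, starting at 0 and scaled to each gene) in the control, day 4 and day 21 libraries (x axis) for 12 members in Kupffer-like (red circles), endothelial-like (blue squares) and stellate-like cells (green triangles), with exact 95% Poisson intervals. Isg15 and Bst2 are highest at day 4 and lowest at day 21 in all 3 classes, while Irf9 and Trim30a in Kupffer-like and endothelial-like cells are not 20% lower at day 21 than at day 4.

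Members were also matched between Kupffer-like and endothelial-like cells. The day 4 peak was met in both by 5 members, Isg15, Oasl2, Irf7, Ifi35 and Herc6, which is 5 of the 11 with a peak in Kupffer-like cells and 5 of the 18 in endothelial-like cells. Ddx58, Trim30a and Ifi47 were higher at day 4 without being lower by the fold at day 21 in both. Ifit2, Ifit3b, Xaf1 and Lgals3bp were lower by the fold at day 21 only in both. The share of all measured genes with the same course in both classes was not counted, so these overlaps are no measure of sharing. For each class alone, the peak was met by 4.5% (Kupffer-like) and 4.72% (endothelial-like) of all measured genes. Within Kupffer-like cluster 7 alone, a cluster present in all 3 libraries, Isg15 had 51.1, 112 and 32.4 CPM, Irf7 778, 1187 and 529 CPM and Bst2 278, 403 and 138 CPM. In the same cluster Trim30a had 99.97, 196 and 251 CPM and Stat2 48.9, 71.4 and 127 CPM. The medians over the 36 members in that cluster were 0.48 for day 4 over control and −0.26 for day 21 over day 4, where all measured genes had 0.00 and 0.26. In the same cluster Ddx58, Ifi47 and Ifih1 were lower at day 4 than in the control, with log2 ratios of −0.30, −0.40 and −0.18, and Herc6 was higher at day 21 than at day 4 (0.30). In endothelial-like cluster 3 alone, which held 104, 59 and 60 cells, 9 of 27 measured members had the peak (12% of all measured genes of that cluster). The medians there were 0.23 for day 4 over control and −0.66 for day 21 over day 4, against 0.03 and 0.06 for all genes. Among measured members the ratio of day 4 over control was below 0 for Ifit2, Ifit3, Rsad2, Irf9, Ifi35, Ddx58, Trim30a, Herc6 and Slfn5. These single-cluster comparisons were chosen after the data were seen.

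Depth was also set equal. With each cell thinned to 1000 UMIs, the medians over 34 measured members in Kupffer-like cells were 0.38 for day 4 over control and −0.55 for day 21 over day 4, and those over 32 members in endothelial-like cells were 0.46 and −0.86.

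In the class sums of the 3 resident classes, more members were lower than higher at day 21 when set against the control. In the Kupffer-like cluster held in all 3 libraries, members were instead near all measured genes of that cluster. In Kupffer-like cells 15 of 36 members were at least 20% lower at day 21 than in the control (24.8% of all measured genes) and 9 were at least 25% higher (33.4%). In endothelial-like cells 20 of 35 were lower (22.2%) and 6 higher (32.7%), with a median log2 ratio of −0.49 for members and 0.08 for all genes. In stellate-like cells 19 of 35 were lower (21.6%) and 7 higher (31.7%), with medians of −0.36 and 0.07. The Kupffer-like median was −0.26, against 0.10 for all genes. In Kupffer-like cluster 7 alone it was 0.29, against 0.25 for all measured genes of that cluster, with 18 of 36 members at least 25% higher (46.6% of all genes) and 10 at least 20% lower (23.6%). In endothelial-like cluster 3 alone the median was −0.34, against 0.11 for all genes, with 14 of 27 members lower (26.2%) and 8 higher (36.7%). Irf9 and Trim30a were among those higher at day 21 than in the control in both Kupffer-like and endothelial-like cells.

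Neutrophil-like cells had high levels of many members and large ratios between libraries. Isg15 had 424, 843 and 117 CPM in the control, day 4 and day 21 libraries, Rsad2 424, 359.98 and 17.9 CPM, and Ifi27l2a 3072, 4575 and 436 CPM. Trim30a had 79.4, 512 and 134 CPM, a peak that it did not have in Kupffer-like or endothelial-like cells. The exception was Ifitm3, with 1099, 2027 and 3544 CPM, the only member of 32 at least 25% higher at day 21 than at day 4 (14.7% of all measured genes).

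Those neutrophil values need the background of the class beside them. The control class held 54 cells, 17 of the 32 measured members had 3 or fewer UMIs there, and 7 had 0. At day 21, 29 of 32 members were at least 20% lower than at day 4, and so were 68.9% of all measured genes. The medians for day 21 over day 4 were −2.08 for members and −0.79 for all genes. Against the control, 23 of 32 members were at least 20% lower at day 21, and so were 74.1% of all measured genes. Day 4 over control gave 0.91 for members and −0.35 for all genes, and 26 of 32 members were at least 25% higher (24.3%). With genes at 0 in the control placed at a floor of 3 UMIs per class sum, which is 39.7 CPM, the medians were 0.71 and −0.19 and the day 4 peak count was 22 of 32 (10.8% of all genes). Against that floor, Ifit2 and Zbp1 (85.3 CPM each at day 4) were at least 2.15-fold higher at day 4 and Cmpk2 (69.5 CPM) at least 1.75-fold higher. The lowest ratio was that of Xaf1, on 3, 6 and 60 UMIs, with a log2 ratio of −1.17 and an interval from −3.30 to 1.56. Neutrophil-like cells at day 21 lay in cluster 18 (54, 181 and 1126 cells in the 3 libraries) and in cluster 27, which held 0, 6 and 1278. In cluster 18 alone the medians over 31 members were 1.05 for day 4 over control and −1.30 for day 21 over day 4, against −0.19 and −0.35 for all measured genes.

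In T-like and conventional dendritic-like cells most members were higher at day 4 and most of these were not lower by the fold at day 21. In T-like cells 24 of 26 measured members were at least 25% higher at day 4 than in the control (28.2% of all measured genes), with medians of 0.68 for members and 0.06 for all genes. In this class 9 of 26 were at least 20% lower at day 21 than at day 4 (17.5%), among them the 3 measured IFIT members. Isg15 in T-like cells had 9.98, 24.9 and 23.4 CPM and Ifitm3 35.7, 103 and 97.1 CPM. Oas3 had the highest day 4 ratio, on 3, 18 and 8 UMIs, with a log2 ratio of 2.89 and an interval from 1.29 to 5.48. Usp18 had the lowest, on 15, 6 and 3 UMIs. Against the control, 16 of 26 members were still at least 25% higher at day 21, against 42.9% of all measured genes, and the median was 0.50 for members and 0.21 for all genes. Neutrophil markers summed to 7.13, 21.0 and 2077 CPM in T-like cells.

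Conventional dendritic-like cells had 24 of 31 members at least 25% higher at day 4 (27.2%) and 11 of 31 at least 20% lower at day 21 than at day 4 (18.3%), with 5 at least 25% higher (38.1%). Against the control, 18 of 31 were at least 25% higher at day 21 (41.3% of all measured genes). Irf7 had 185, 452 and 159 CPM there and Isg15 51.4, 91.8 and 40.8 CPM. Ifi47 had the highest day 4 ratio, with 3, 31 and 35 UMIs and a log2 ratio of 2.51 (interval 1.03 to 5.07), and it was not lower at day 21. Mx1 had the lowest, with 27, 23 and 16 UMIs, a log2 ratio of −0.88 and an interval from −1.76 to −0.03. Neutrophil markers summed to 834, 21.8 and 4093 CPM in this class in the control, day 4 and day 21 libraries.

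In B-like cells 19 of 24 measured members were at least 25% higher at day 4 (31% of all measured genes) and 13 were at least 20% lower at day 21 than at day 4 (19%), with 3 at least 25% higher (49.1%). Ifi27l2a, with the most UMIs among the members there, had 605, 909 and 485 CPM. Ifit3 had the highest day 4 ratio, on 3, 15 and 3 UMIs, with a log2 ratio of 2.78 (interval 1.13 to 5.38). Ifi204 had the lowest, on 16, 7 and 19 UMIs. The day 21 B-like cells included 299 in cluster 29, which was led by Vpreb2, Igll1 and Rag1, genes of B cell precursors, and which held 0 control cells and 1 day 4 cell. Neutrophil markers summed to 10.1, 609.8 and 2036 CPM in B-like cells. In B-like cluster 14 alone the medians over 23 members were 0.59 and −0.16 for the 2 comparisons. In NK/ILC1-like cells Ifi35 had the highest day 4 ratio, on 12, 19 and 4 UMIs, and Trim30a the lowest, on 16, 6 and 10.

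Plasmacytoid dendritic-like cells, the specialised producers of type I interferon, had only 42 cells in the control and were compared between day 21 (89 cells) and day 4 (51 cells). Irf7 had 212 CPM at day 21 and 502 CPM at day 4, and Bst2, which is a marker of these cells in mice, 2147 CPM and 3553 CPM. Isg15 had 62.4 CPM at day 21 and 74.8 CPM at day 4, on 20 and 25 UMIs. Other members went the other way. Irf9 had 90.5 CPM at day 21 and under 59.9 CPM at day 4, and Usp18 had 37.4 CPM and under 32.7 CPM. How many members went each way in this class was not counted. Monocyte/macrophage-like cells had 28, 20 and 535 cells and were not compared between libraries: at day 21 Ifitm3 had 4890.3 CPM and Ifi27l2a 2342 CPM in them.

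Levels were also ordered across the classes with at least 50 cells in a library. Irf7 was highest in Kupffer-like cells in each of the 3 libraries, with 913, 1168 and 536 CPM. The next class had 331 CPM in the control (neutrophil-like), 502 CPM at day 4 and 212 CPM at day 21 (plasmacytoid dendritic-like), below the Kupffer-like interval each time. Isg15 was highest in neutrophil-like cells in the control and at day 4. At day 21 stellate-like cells (139.7 CPM) and neutrophil-like cells (117 CPM) stood first, and their intervals overlapped. Among the 36 members, neutrophil-like cells had the highest level for 11 in the control, for 16 at day 4 and for 2 at day 21, while Kupffer-like cells had it for 11, 8 and 14. The sets of classes differed between libraries, with 8, 9 and 12 classes of at least 50 cells, and at day 21 monocyte/macrophage-like cells, which were in neither of the other orders, had the highest level for 7 members. The intervals of the first 2 classes overlapped for 16, 15 and 25 of the 36 members, so these counts are no measure of change.

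**Figure D4:**
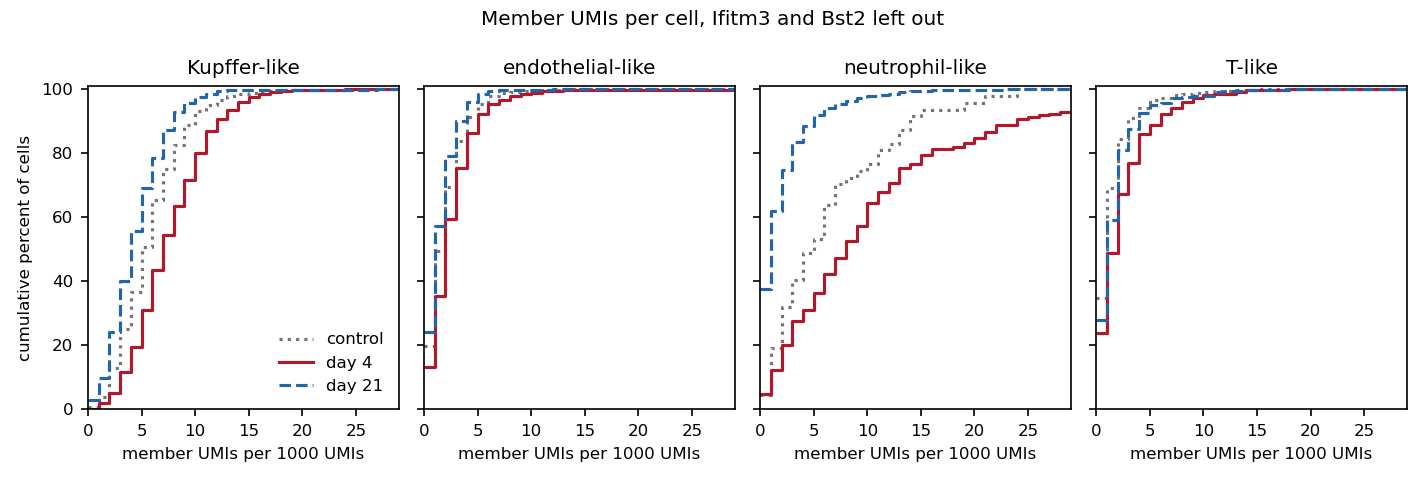
Cumulative percent of cells (y axis) by their summed UMIs of members other than Ifitm3 and Bst2, after thinning each cell to 1000 UMIs (x axis), for 4 classes in the control (dotted grey), at day 4 (solid red) and at day 21 (dashed blue). A curve further right has more member UMIs per cell: the Kupffer-like day 4 curve is right of both others up to 18 UMIs, and the neutrophil-like medians are 5, 8 and 1.

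Member UMIs were also counted per cell. In cells thinned to 1000 UMIs, with the 2 abundant members Ifitm3 and Bst2 left out, the median member count per Kupffer-like cell was 5, 7 and 4 in the control, day 4 and day 21 libraries, and the 10th percentile was 2, 3 and 2. The 10% of cells with the most member UMIs held 21.4%, 19.4% and 22.3% of them. Endothelial-like cells had medians of 2, 2 and 1 and 99th percentiles of 8, 11 and 6. In neutrophil-like cells, of which only 47 control cells reached 1000 UMIs, fewer than the 50 asked for elsewhere, the median was 5, 8 and 1, the 90th percentile 14, 24 and 5, and the top 10% of cells held 30.8%, 35.6% and 44.6% of member UMIs. Cells are not replicates, and the share of these UMIs that came from free RNA in the droplets was not tested.

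Counted over the 8 compared classes, members differed in how often they had the day 4 peak. In a single class the peak was met by 4.5% (Kupffer-like) to 19.5% (neutrophil-like) of all measured genes. How many of all genes met it in several classes was not counted. Oasl2 had it in 5 of 5 classes where it was measured, Isg15 in 6 of 7, Irf7 in 6 of 8, Ifit3 in 5 of 7 and Ifit1 in 4 of 5. Lgals3bp had it in 0 of 7 and Oas1a in 0 of 4, and Irf9, Xaf1, Trim30a and Ifi47 in 1 class each of the 7, 7, 8 and 8 where they were measured. Eif2ak2 had it in 1 of the 6 classes where it was measured, and in 0 of the 5 classes with control UMIs. Isg15 (7 classes) and Oas2, Ifit1 and Oasl2 (5 classes each) were at least 25% higher at day 4 than in the control in every class that measured them. Stat2 was so in the 6 classes with control UMIs, and in neutrophil-like cells, with 0 control UMIs, it was at least 1.03-fold higher. Of all measured genes, 16.3% (endothelial-like) to 31% (B-like) were at least 25% higher at day 4 in a single class.

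The genes upstream of the list were looked at from lists of pathway genes. Of 20 interferon ligands other than Ifng, 18 had 0 UMIs over all barcodes of the 3 libraries, and the whole set had 0 UMIs in the control, 1 at day 4 (Ifnz) and 1 at day 21 (Ifnab). Ifng, made by lymphocytes, had 97, 179 and 115 UMIs over all barcodes. These counts are not scaled to the library totals of 27191082, 34833820 and 51913215 UMIs. Ifnar1 in Kupffer-like cells had 66.4, 57.0 and 46.2 CPM, and Ifnar2 268, 291 and 228 CPM. Of 18 receptor and signalling genes in Kupffer-like cells, 3 were at least 25% higher and 1 at least 20% lower at day 4 than in the control, where 16.7% and 17.7% of all measured genes were, so the share that was higher equalled the background. Their median log2 ratio was 0.12, against 0.00 for all genes. Irf1, a factor that also serves interferon gamma, had 53.0, 71.7 and 123 CPM in Kupffer-like cells, highest at day 21.

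In endothelial-like cells the negative regulator Socs3 had 62.2, 66.2 and 414 CPM, and Tmem173 (STING, the adaptor of cytosolic DNA sensing) had 27.5, 36.3 and 129 CPM. Both were several times higher at day 21 than at day 4 while Isg15, Ifit3 and Rsad2 were lower. Both were picked from longer lists, and a link to the lower members was not tested. Of 17 measured receptor and signalling genes in endothelial-like cells, 5 were higher and 2 lower by the fold at day 21 than at day 4. Sensors and adaptors gave 6 and 1 of 12. The shares of all measured genes were 27.8% and 21.4%. Stellate-like cells gave 45.4, 45.8 and 251 CPM for Socs3 and 26.4, 32.2 and 97.4 CPM for Tmem173. There 11 of 18 receptor and signalling genes were higher and 1 lower at day 21 than at day 4 by the same fold. For sensors and adaptors it was 8 and 1 of 14, against 32.1% and 21% of all measured genes. Day 21 cells of both classes lay in clusters 2 and 12, which held few control or day 4 cells, and state and library cannot be told apart there.

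A further 64 interferon-induced genes outside the list, 60 of them with a row, had the same direction of median with smaller ratios in Kupffer-like and endothelial-like cells. In Kupffer-like cells 24 of 55 measured were at least 25% higher at day 4 (16.7% of all genes) and 26 were at least 20% lower at day 21 than at day 4 (22.2%), with medians of 0.28 and −0.31, against 0.00 and 0.09 for all genes. In endothelial-like cells the counts were 20 and 30 of 50 (16.3% and 21.4% of all genes), with medians of 0.21 and −0.43, against 0.03 and 0.05. Ly6e, a membrane protein with antiviral activity, had 1486, 1856 and 1370.1 CPM in Kupffer-like cells and 353, 491 and 194 CPM in endothelial-like cells. Psmb8, a subunit of the immunoproteasome, had 264, 308 and 152 CPM in Kupffer-like cells. Iigp1, an immunity-related GTPase like Ifi47, had 36.9, 78.3 and 98.3 CPM there and was not lower at day 21 than at day 4. Ifi47 was lower there, by less than 20%.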

How the data were processed

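Non-parenchymal liver cells were measured in 3 droplet libraries, 1 per group. The deposited values are raw UMI counts per gene and barcode, already limited to barcodes called as cells, from Cell Ranger 3.1.0 (per the file headers); the build was mm10, according to the submitters' processing notes. Cells needed 200 or more detected genes and no more than 20% of UMIs from mitochondrial genes, and doublets called by Scrublet were removed (in Scanpy 1.11.5, at the expected rate of 0.8% per 1000 cells where the caller marked under 0.5%). Cells were scaled to 10000 counts, and 2000 variable genes without 156 interferon-related genes, 30 principal components, 15 neighbours and Leiden resolution 1 gave 30 clusters, of which 21 were named by marker lists. Counts were summed per class and library and given as CPM, with 0.5 counts added for log2 ratios. Intervals are exact: Poisson for levels, conditional binomial for ratios. The ratio script was checked on simulated data.

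Values were given by role for members measured in Kupffer-like or endothelial-like cells, and for the members with the highest and lowest day 4 ratio in each other class. Members, lists and this rule were chosen with earlier results of these data known. UMI counts in 1 library per group allow no test between groups. Promoters came from RefSeq (GRCm38.p6). Gene positions came from GENCODE M21. The libraries held 27191082 to 51913215 UMIs. No sample column went unused. SciPy 1.17.1 and NumPy 2.4.6 were used. One gene of the pathway is not reported here.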

Additional observations from a re-analysis of the deposited data

Results flagged for a closer look

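Cells that entered no comparison also had a higher member median at day 4 than in the control. In barcodes removed by the filters (1795, 3909 and 2400 in the control, day 4 and day 21 libraries) the median log2 ratio of day 4 over control was 0.69 over 36 members and 0.10 over all measured genes. In 4 clusters that stayed unnamed the member median was 0.22 (cluster 0), 0.37 (cluster 5), 0.29 (cluster 10) and 0.46 (cluster 11), where all measured genes had medians of −0.025, 0.045, 0.067 and 0.075. The day 4 peak was met by 20 of 36 members in the removed barcodes (6.16% of all measured genes). In clusters 0, 5, 10 and 11 it was met by 1 of 22, 14 of 30, 7 of 30 and 12 of 29. The shares of all genes there were 6.58%, 8.16%, 6.67% and 9.57%. In cluster 0 the member median of day 21 over day 4 was 0.070, against 0.22 for all genes. Cluster 0 was led by the hepatocyte genes Fabp1 and Gnmt, cluster 10 by Xcl1, Cd160 and Ifng.

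Rsad2 moved in opposite directions in 2 classes between day 21 and day 4, with a log2 ratio of 0.38 in Kupffer-like cells and −2.22 in endothelial-like cells. The difference was not tested, since each group had 1 library. In the single clusters held in all 3 libraries the ratios were 0.87 in Kupffer-like and −0.20 in endothelial-like cells, the second on 9 UMIs at day 21 and 16 at day 4.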

How the results depend on the processing

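No paired analysis was possible because each group had 1 library. The member medians in Kupffer-like, endothelial-like and stellate-like cells kept their sign under each alternative run: day 4 over control ran from 0.24 to 0.48, 0.23 to 0.47 and 0.29 to 0.36, and day 21 over day 4 from −0.66 to −0.21, −0.99 to −0.66 and −0.82 to −0.39. Counts of day 4 peaks depended on the fold. A fold of 1 gave 31 in Kupffer-like, 32 in endothelial-like, 20 in stellate-like and 17 in T-like cells. A fold of 1.5 gave 1, 5, 1 and 5 in these classes and 7 in B-like cells, and a fold of 2 gave 0, 0, 0, 1 and 2. The B-like count was 20 with 1 or more UMIs, 21 with doublets kept, 5 with at most 10% mitochondrial UMIs and 4 in thinned cells, and the day 21 over day 4 median of B-like cells became 0.00354 and 0.00554 in the last 2. The T-like count was 5 with at most 10% mitochondrial UMIs and 4 in thinned cells. The conventional dendritic-like median of day 21 over day 4 was 0.073 without a mitochondrial limit and 0.11 with at most 10%. The NK/ILC1-like median of day 4 over control was −0.23 as a mean over cells and −0.17 with 50 or more UMIs. In thinned cells the log2 ratios of day 4 over control were −0.081 for Ddx58 in Kupffer-like cells, and −0.96 for Oas2 and −0.026 for Xaf1 in endothelial-like cells, and Herc6 in Kupffer-like cells had 0.15 for day 21 over day 4. Without a mitochondrial limit the deeper Kupffer cluster stayed unnamed, and in the cells left day 4 over control was −0.72 for Irf9, −0.43 for Ifih1, −0.47 for Ddx58, −0.018 for Zbp1, −0.13 for Herc6 and −0.063 for Ifi47. Day 21 over day 4 was 0.40 for Oasl2, 0.012 for Ifi44, 0.82 for Ifih1, 0.036 for Dhx58, 0.29 for Rtp4 and 0.17 for Eif2ak2 there. In Kupffer-like cluster 7 alone, chosen after the data were seen, day 4 over control was −0.18 for Ifih1, −0.30 for Ddx58 and −0.40 for Ifi47, and day 21 over day 4 was 0.30 for Herc6, 0.15 for Rtp4 and 0.10 for Eif2ak2. Day 4 over control was also below 0 there for Ifit3b (−1.03), Mx1 (−0.85) and Usp18 (−0.15). In endothelial-like cluster 3 alone (104, 59 and 60 cells in the 3 libraries) the count was 9, day 4 over control was −0.016 for Ifit2, −0.026 for Ifit3, −0.31 for Rsad2, −0.58 for Irf9, −0.32 for Ifi35, −0.20 for Ddx58, −0.23 for Dhx58 and Trim30a, −0.34 for Herc6 and −0.013 for Slfn5, and day 21 over day 4 was 0.033 for Ifit2, 0.029 for Slfn5 and 0.11 for Dhx58. The causes were not tested. Stellate-like cells had no single cluster with enough cells, and neutrophil-like cells too few under the 10% limit and in thinned cells. The ratios of members with few UMIs are limited by counting error, and the spread between mice is unknown.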
